A study of Mus musculus with 9 samples.

Results

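Mouse mitochondrial DNA encodes 37 genes, 13 mRNAs, 2 rRNAs and 22 tRNAs, and their reads were compared between hearts of mice labelled as Parkin knockouts and wild-type hearts. The members were all rows of the count table that carry an Ensembl identifier in place of a symbol, 37 of 23457 rows, and each matched 1 gene named mt- in the GENCODE vM21 annotation on GRCm38. Every one lay on the mitochondrial chromosome. On the plus strand of the annotation lay 12 mRNAs, both rRNAs and 14 tRNAs, and on the minus strand mt-Nd6 and 8 tRNAs. The rule uses no measured value, though these genes were chosen for description with earlier results of the same hearts known.

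Both strands of the mitochondrial genome are transcribed by the RNA polymerase Polrmt, with the packaging factor Tfam, into long transcripts that hold several genes each. Transcripts begun at the heavy-strand promoter carry the plus-strand genes and those begun at the light-strand promoter carry mt-Nd6 and the minus-strand tRNAs. Excision of the tRNAs that lie between them frees the rRNAs and mRNAs, most of which then receive short poly(A) tails. The mRNAs code for subunits of respiratory complexes I, III, IV and V, which supply most of the ATP of the beating heart, and the rRNAs and tRNAs serve to translate them inside the organelle.

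The labels give 4 hearts of germline Parkin knockout mice (KO) and 5 of wild-type mice (WT), each sequenced as its own library. All came from adult animals on a C57BL/6J background, and the tissue is labelled whole heart although the protocol describes frozen ventricular apices. Parkin is an E3 ubiquitin ligase that marks damaged mitochondria for removal, and the mouse hearts accompanied work on fly heart tubes. The libraries were made from oligo(dT)-selected RNA, single-end and without strand, so reads from overlapping genes on opposite strands cannot be told apart. The targeted gene, listed as Park2, had 82, 53, 54 and 37 reads in KO hearts 1 to 4, against 74, 14, 8, 44 and 16 reads in WT hearts 1 to 5. Scaled to library size, it averaged 3.12 ± 0.572 CPM in KO hearts and 3.098 ± 1.14 CPM in WT hearts (SD, n = 4 and 5), and the groups overlapped (log2 fold change 0.06 ± 0.26, edgeR adjusted p = 0.862). With the trends in GC content and length described below removed, it was higher in KO hearts (log2 fold change 0.84, edgeR adjusted p = 0.0149). Its summed reads were therefore not lower in the libraries labelled KO. The labels do not say which part of the gene was deleted, and a count over the whole gene cannot show the loss of 1 exon, so the genotypes rest on the labels and every library called KO below is the library labelled KO.

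Assigned reads per library ran from 11637206 to 15777844 in KO hearts and from 4415183 to 20827699 in WT hearts. CPM here is the read count relative to the TMM-scaled library size, and a gene passed the test when its Benjamini-Hochberg adjusted p over all 12640 genes tested with edgeR was under 0.05. Of those genes 51.4% passed, 25.2% lower and 26.2% higher in KO hearts. Summed levels of 9 cardiomyocyte markers were 86164 to 94657 CPM in KO hearts and 63603 to 69725 CPM in WT hearts, with 4 of the 9 higher and 1 lower. The 4 atrial markers summed to 134 to 478 CPM in KO hearts and 23.7 to 43.4 CPM in WT hearts, with 1 of 2 tested higher. Most of that sum was Nppa, at a mean of 270 CPM in KO hearts and 34.9 CPM in WT hearts. Myl4 did not pass (means 2.2 and 2.0 CPM, edgeR adjusted p = 0.584), and Myl7 and Sln were too low to test. The 4 skeletal muscle markers summed to 9.82 to 22.5 CPM in KO hearts and 0.983 to 4.87 CPM in WT hearts, with 2 of 2 tested higher. In KO hearts most of this was Myh2 (mean 14.3 CPM, against 1.23 CPM in WT hearts), and Actn3 and Tnnt3 were too low to test. Of the endothelial markers 1 of 5 was higher and 2 lower (summed 528 to 624 CPM in KO hearts, 639 to 762 CPM in WT hearts), and of the fibroblast markers 3 of 6 were higher and 2 lower (568 to 1035 CPM in KO hearts, 526 to 677 CPM in WT hearts). Smooth muscle and pericyte markers were higher in 2 of 5 (570.3 to 804 CPM in KO hearts, 365 to 578 CPM in WT hearts), and immune markers higher in 2 of 5 and lower in 1 (122 to 146 CPM in KO hearts, 102 to 137 CPM in WT hearts). The 3 erythroid markers summed to 7.87 to 19.4 CPM in KO hearts and 10.7 to 20.5 CPM in WT hearts, and 2 of them were at 0 in every heart. The part of these markers in the results below was not tested.

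All 13 mitochondrial mRNAs and both rRNAs were lower in KO hearts, and 6 of the 16 tRNAs that could be tested passed as lower, a count that rests on few reads. As a share of assigned reads, the 13 mRNAs took 9.54, 14.6, 12.1 and 14.7% in KO hearts 1 to 4, against 30.9, 55.98, 52.9, 35.99 and 47.3% in WT hearts 1 to 5. The means were 12.7 ± 2.45% in KO hearts and 44.6 ± 10.8% in WT hearts (SD, n = 4 and 5), and every KO heart lay under every WT heart (two-sided exact permutation p = 0.00794, adjusted p = 0.0357, over 9 measures per heart). A p of 0.00794 is the smallest that the 126 splits of 4 and 5 hearts can give. The 2 rRNAs took 0.482, 0.392, 0.574 and 0.707% of reads in KO hearts 1 to 4, against 1.64, 2.13, 2.84, 1.74 and 3.37% in WT hearts 1 to 5. Again the groups did not overlap (two-sided exact permutation p = 0.00794, adjusted p = 0.0357). The 22 tRNAs took 0.0175, 0.0361, 0.0235 and 0.0311% in KO hearts 1 to 4, against 0.0346, 0.0958, 0.102, 0.0392 and 0.0645% in WT hearts 1 to 5. Here KO heart 2 lay above WT heart 1, and the difference did not pass after adjustment (two-sided exact permutation p = 0.0476, adjusted p = 0.0857). In bulk tissue, fewer cells of a type and less of an RNA per cell cannot be told apart.

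**Figure D1:**
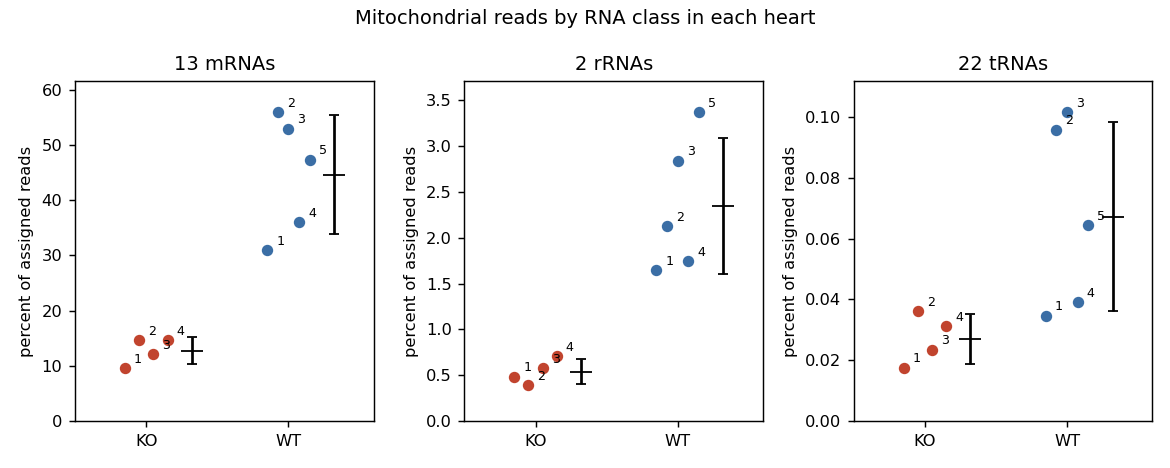
Percent of assigned reads in each heart that fell on the 13 mitochondrial mRNAs, the 2 rRNAs and the 22 tRNAs; points are single hearts with their replicate number (KO n = 4, WT n = 5), and the bar beside them is the mean ± SD. The KO hearts lie under every WT heart for mRNAs and rRNAs, and overlap the WT hearts for tRNAs.

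Read depth moved with these shares among the hearts. The WT hearts with the fewest assigned reads, numbers 2 and 3 with 4415183 and 4655742, had 58.2% and 55.9% of them on mitochondrial genes, and the deepest, WT heart 1 with 20827699, had 32.6%. WT hearts 4 and 5 were about as deep as the KO hearts, with 14201590 and 11252463 reads, and had 37.8% and 50.7% on mitochondrial genes. KO hearts 1 to 4 had 10.04%, 15.1%, 12.7% and 15.4%. For these totals the counting error is small, with a 95% Wilson interval of 10.02% to 10.05% in KO heart 1 and of 58.16% to 58.25% in WT heart 2, and it covers counting error only. Without WT hearts 2 and 3 the mRNA share still did not overlap between groups and differed by -25.3 percentage points, with an adjusted p of 0.0643 in the exact permutation test, where 35 splits are possible. Leaving out any 1 heart gave a difference of -35.3 to -29.1 points and an adjusted p of 0.0514 to 0.103 in the same test, where the smallest p before adjustment is 0.0179 without a KO heart and 0.0286 without a WT heart. The part of read depth in the lower shares was not tested.

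The rRNAs lie first on the transcript from the heavy-strand promoter. mt-Rnr1 (M:70-1024), the small-subunit rRNA, had 256, 399, 482 and 663 CPM in KO hearts 1 to 4, against 1383, 2098, 2168, 974 and 2179.9 CPM in WT hearts 1 to 5. The KO hearts all lay under the WT hearts (log2 fold change -1.97 ± 0.28 (SE), edgeR adjusted p = 6.12e-05). mt-Rnr2 (M:1094-2675), the large-subunit rRNA, had 3329, 2712, 4095 and 5225 CPM in KO hearts 1 to 4, against 13975, 30462, 37016, 16406 and 41880.3 CPM in WT hearts 1 to 5. It too fell without overlap, by 7.28-fold (log2 fold change -2.86 ± 0.32, edgeR adjusted p = 1.36e-05). Reads of mt-Rnr1 per 100 mt-Rnr2 reads were 7.68, 14.7, 11.8 and 12.7 in KO hearts 1 to 4, against 9.898, 6.89, 5.86, 5.94 and 5.21 in WT hearts 1 to 5. KO heart 1 lay within the WT range, the other KO hearts above it, and the difference did not pass after adjustment (two-sided exact permutation p = 0.0317, adjusted p = 0.0857). rRNA reads per 100 mitochondrial mRNA reads were 2.68 to 5.05 in KO hearts and 3.798 to 7.13 in WT hearts (two-sided exact permutation p = 0.286, adjusted p = 0.321). The libraries select poly(A) RNA, so the rRNA levels and this ratio also depend on poly(A) tails, which were not measured.

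Among the mRNAs the fall ran over a wide span, from a log2 fold change of -3.13 for mt-Nd1 to -0.87 for mt-Nd3, with a median of -2.39, beside a median of -0.01 over all genes tested. In 12 of the 13 the KO and WT hearts did not overlap, a pattern with KO lower that 19.3% of all tested genes showed (41.6% in either direction), and mt-Nd3 was the exception. KO heart 1 had the lowest level of the KO group for 11 mRNAs and KO heart 4 the highest for 10, while WT heart 1 was lowest among WT hearts for 11 and WT heart 2 highest for 10. The mRNAs thus shared much of the order of the hearts within each group.

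Complex I, the NADH dehydrogenase that feeds electrons to ubiquinone, takes 7 of its subunits from mitochondrial DNA. mt-Nd1 (M:2751-3707), a subunit of its membrane arm near the ubiquinone site, had 5579.9, 5632, 4548 and 6312 CPM in KO hearts 1 to 4, against 24453, 59926, 57226, 32624 and 67446 CPM in WT hearts 1 to 5. Its KO hearts lay close together and the WT hearts far above the highest of them, and the log2 fold change of -3.13 ± 0.29 was the lowest of the 13 (edgeR adjusted p = 4.11e-06). mt-Nd2 (M:3914-4951), a membrane-arm subunit that takes part in proton pumping, had 9661, 20295, 14332 and 18344 CPM in KO hearts 1 to 4, against 34146, 175823, 138440.4, 49913 and 92241 CPM in WT hearts 1 to 5. WT hearts 2 and 3 stood well above the other WT hearts, and the groups did not overlap (log2 fold change -2.65 ± 0.42, edgeR adjusted p = 1.36e-04). mt-Nd4 (M:10167-11544), another pumping subunit, had 9436, 16600.0, 13849 and 16984 CPM in KO hearts 1 to 4, against 39985, 161092, 139255, 54878 and 105519 CPM in WT hearts 1 to 5. The same WT hearts were highest (log2 fold change -2.82 ± 0.37, edgeR adjusted p = 3.88e-05). mt-Nd4l (M:9877-10173), a small membrane subunit whose reading frame runs into that of mt-Nd4, had 1642, 2585, 2868 and 3719 CPM in KO hearts 1 to 4, against 7885, 28447, 20505, 9577 and 15967 CPM in WT hearts 1 to 5. It fell about as far as mt-Nd4 (log2 fold change -2.61 ± 0.35, edgeR adjusted p = 4.27e-05).

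mt-Nd5 (M:11742-13565), the largest of the mitochondrially encoded subunits of complex I, had 5416, 8677, 8029 and 9312 CPM in KO hearts 1 to 4, against 27525, 75697, 62441, 35988 and 55843 CPM in WT hearts 1 to 5. Every KO heart lay under every WT heart (log2 fold change -2.71 ± 0.29, edgeR adjusted p = 8.61e-06). mt-Nd6 (M:13552-14070), the single mRNA on the minus strand, had 4623, 9589, 6229.7 and 7645 CPM in KO hearts 1 to 4, against 14879, 64314, 48758, 21896 and 33887 CPM in WT hearts 1 to 5. It fell 5.23-fold (log2 fold change -2.39 ± 0.37, edgeR adjusted p = 1.16e-04), within the span of the plus-strand mRNAs. mt-Nd3 (M:9459-9806), a small subunit at the junction of the membrane and matrix arms, had 237, 484, 415 and 560.2 CPM in KO hearts 1 to 4, against 617, 959.8, 848, 449.8 and 1006 CPM in WT hearts 1 to 5. KO hearts 2 and 4 lay above WT heart 4, so the groups overlapped, and the fall was the smallest of the 13 (log2 fold change -0.87 ± 0.25, edgeR adjusted p = 0.00915). Without WT hearts 2 and 3 it did not pass (log2 fold change -0.71, edgeR adjusted p = 0.06197), the one mRNA of which this was so.

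Complex III passes electrons from ubiquinol to cytochrome c, and its core subunit cytochrome b comes from mt-Cytb (M:14145-15288). mt-Cytb had 5083, 9721, 8558 and 11629.7 CPM in KO hearts 1 to 4, against 37475, 97733, 83307, 41713 and 74165 CPM in WT hearts 1 to 5. Only mt-Nd1 fell further among the mRNAs (log2 fold change -2.93 ± 0.32, 7.65-fold lower, edgeR adjusted p = 1.00e-05).

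Complex IV, cytochrome c oxidase, reduces oxygen with 3 mitochondrially encoded core subunits. mt-Co1 (M:5328-6872), which holds the oxygen-binding site, had 13612, 16768, 16544 and 15558 CPM in KO hearts 1 to 4, against 47564, 67202, 62452, 48293 and 64428 CPM in WT hearts 1 to 5. The hearts of each group lay close together (log2 fold change -1.89 ± 0.18, edgeR adjusted p = 4.25e-06). mt-Co2 (M:7013-7696), which takes electrons from cytochrome c, had 6897, 7265, 6224 and 8480.4 CPM in KO hearts 1 to 4, against 25001, 45936, 41476, 29965 and 42456 CPM in WT hearts 1 to 5. It fell 5.12-fold without overlap (log2 fold change -2.36 ± 0.21, edgeR adjusted p = 4.06e-06). mt-Co3 (M:8607-9390) had 2002, 3367, 3406 and 4269 CPM in KO hearts 1 to 4, against 5241, 10615, 8650.2, 5109 and 9464 CPM in WT hearts 1 to 5. This other core subunit fell less, by 2.397-fold, with KO heart 4 just under WT heart 4 (log2 fold change -1.26 ± 0.25, edgeR adjusted p = 7.97e-04).

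Complex V, the ATP synthase, has a pair of mitochondrially encoded subunits in its membrane part. mt-Atp6 (M:7927-8607), subunit a of the proton channel, had 5061, 12262, 9036 and 15962 CPM in KO hearts 1 to 4, against 19912, 56708, 53278, 22947 and 44869.8 CPM in WT hearts 1 to 5. KO heart 4 came close to WT heart 1 (log2 fold change -1.90 ± 0.36, edgeR adjusted p = 4.93e-04). mt-Atp8 (M:7766-7969), a small subunit of the stalk region, had 1681, 3023, 2572 and 3403 CPM in KO hearts 1 to 4, against 4254, 12868, 13444, 5601 and 10516 CPM in WT hearts 1 to 5. It fell by much the same amount (log2 fold change -1.81 ± 0.32, edgeR adjusted p = 3.13e-04).

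**Figure D2:**
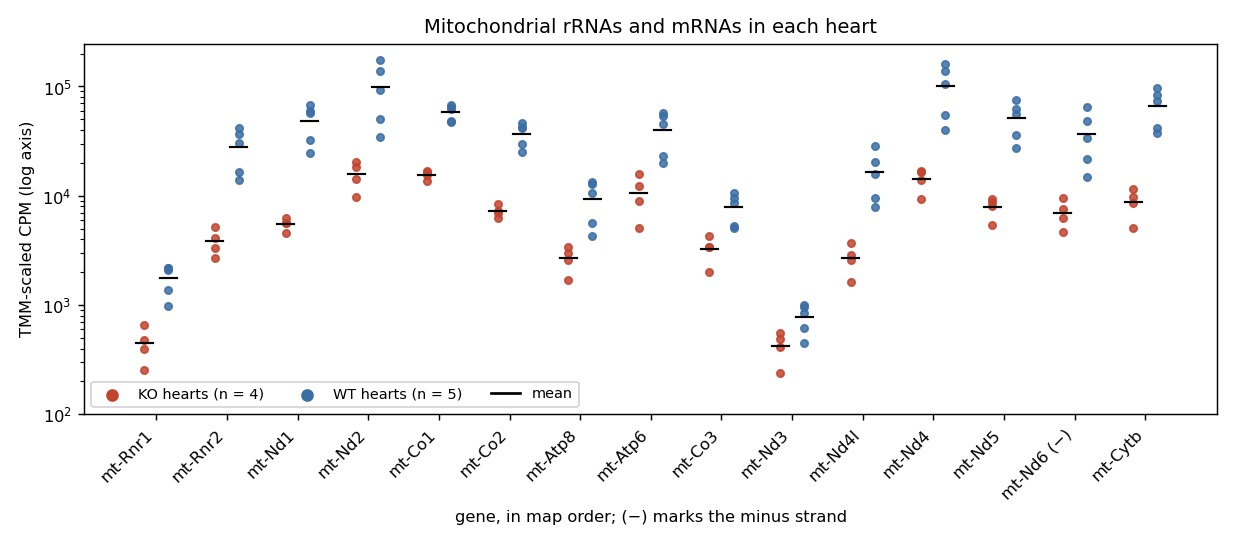
TMM-scaled CPM on a log axis for both mitochondrial rRNAs and the 13 mRNAs in map order; each point is 1 heart (KO n = 4, left of WT n = 5) and each bar the group mean. KO hearts lie under all WT hearts for every gene shown but mt-Nd3, where KO hearts 2 and 4, at 484 and 560.2 CPM, lie above WT heart 4 at 449.8 CPM.

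Neighbouring mRNAs share bases in places, which bears on how their reads can be counted. The stretches below show where mt-Atp8 runs into mt-Atp6 (M:7912-7984, 43 shared bases) and mt-Nd4l into mt-Nd4 (M:10152-10188, 7 shared bases), from GENCODE vM21 transcripts on GRCm38, plus strand, with the shared bases in capitals.
mt-Atp8/mt-Atp6: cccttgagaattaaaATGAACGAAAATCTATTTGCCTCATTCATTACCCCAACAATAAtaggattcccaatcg
mt-Nd4l/mt-Nd4: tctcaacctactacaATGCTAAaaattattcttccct
Reads of mt-Atp8 per 100 mt-Atp6 reads were 21.3 to 33.2 in KO hearts and 21.4 to 25.2 in WT hearts, and reads of mt-Nd4l per 100 mt-Nd4 reads were 15.6 to 21.9 in KO hearts and 14.7 to 19.7 in WT hearts. For both overlapping pairs the groups overlapped. Reads of mt-Atp6 per 100 mt-Co3 reads were 253, 364, 265 and 374 in KO hearts 1 to 4, against 379.9, 534, 616, 449 and 474 in WT hearts 1 to 5, so KO hearts were lower without overlap although those genes share only 1 base. Reads of mt-Co3 per 100 reads of mt-Nd3, with mt-Tg between them, were 695 to 844 in KO hearts and 850 to 1136 in WT hearts, also without overlap. mt-Nd5 and mt-Nd6 share 14 bases on opposite strands, and mt-Co1 and mt-Ts1 share 3.

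At the 3′ end, 3 of the mRNAs stop at a lone T in the annotation, which the poly(A) tail completes to a stop codon. They are shown because mt-Co3 is among the least lowered mRNAs while mt-Cytb and mt-Nd4 are among the most. Set beside them is mt-Nd1, which ends in a whole stop codon in the annotation. The last 2 bases of mt-Nd1 also belong to mt-Ti, and the last 2 of mt-Nd2 to mt-Tw. Whether those mRNAs keep a whole stop codon once the tRNAs are cut out is not shown here. Each line gives the last 21 bases of the transcript (GENCODE vM21, GRCm38, plus strand), with the stop codon or its encoded part in capitals.
mt-Co3: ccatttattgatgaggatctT
mt-Nd4: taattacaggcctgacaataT
mt-Cytb: aaatactaaaattatatccaT
mt-Nd1: ggagtaccaccatacataTAG
The log2 fold changes of the 3 with a lone T were -1.26 for mt-Co3, -2.82 for mt-Nd4 and -2.93 for mt-Cytb. They covered most of the span of the 10 annotated with a whole stop codon.

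Within the mitochondrial mRNA reads, set at 100% per heart, the balance between mRNAs also differed. Of the 13 shares, 5 passed an exact permutation test adjusted over the 13, with mt-Nd3, mt-Co3 and mt-Atp8 taking more and mt-Cytb and mt-Nd5 less in KO hearts. mt-Nd3 took 0.334, 0.416, 0.4296 and 0.458% in KO hearts 1 to 4, against 0.214, 0.112, 0.116, 0.125 and 0.163% in WT hearts 1 to 5. The KO share was 2.81 times that of WT, with no overlap (two-sided exact permutation p = 0.00794, adjusted p = 0.0258). mt-Co3 took 2.82, 2.896, 3.53 and 3.49% in KO hearts 1 to 4, against 1.81, 1.24, 1.18, 1.42 and 1.53% in WT hearts 1 to 5. Its KO share was 2.21 times that of WT, and that of mt-Atp8 1.61 times (2.605 ± 0.174% in KO hearts and 1.62 ± 0.154% in WT hearts (SD, n = 4 and 5)), each without overlap and with the same p. mt-Cytb took 7.17, 8.36, 8.86 and 9.52% in KO hearts 1 to 4, against 12.97, 11.4, 11.4, 11.6 and 12.005% in WT hearts 1 to 5. Its KO share was 0.713 times that of WT, again with the smallest p the splits can give (adjusted exact permutation p = 0.0258). mt-Nd5 averaged 7.76 ± 0.377% in KO hearts and 9.19 ± 0.585% in WT hearts (SD, n = 4 and 5) (two-sided exact permutation p = 0.0159, adjusted p = 0.0413).

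mt-Atp6 took 7.14, 10.5, 9.35 and 13.1% in KO hearts 1 to 4, against 6.89, 6.61, 7.298, 6.39 and 7.26% in WT hearts 1 to 5. KO heart 1 lay within the WT range and the share did not pass (two-sided exact permutation adjusted p = 0.0516), nor did that of mt-Nd1 at 5.65 ± 1.49% in KO hearts and 8.66 ± 1.48% in WT hearts (SD, n = 4 and 5) (adjusted p = 0.0737 in the same exact permutation test). The other 6 shares did not pass either. No share passed when any 1 WT heart, or both shallow hearts (WT 2 and 3), were left out, but there the smallest p the splits can give is 0.0286, and at least 8 of the 13 shares would have to reach it for any to pass. Without KO heart 2, 4 of the 5 had the smallest p of 0.0179 and that of mt-Nd5 was 0.0357, where at least 5 shares at the smallest p are needed (exact permutation, 56 splits), and none passed. Over all these choices of hearts the KO share was 2.45 to 3.17 times that of WT for mt-Nd3, 2.003 to 2.37 times for mt-Co3, 1.58 to 1.67 times for mt-Atp8, 0.684 to 0.75 times for mt-Cytb and 0.814 to 0.863 times for mt-Nd5. Summed by complex, reads of the 7 complex I mRNAs per 100 reads of the 3 complex IV mRNAs were 163, 233, 192 and 222 in KO hearts 1 to 4, against 192, 458, 415, 246 and 319.7 in WT hearts 1 to 5. WT heart 1 lay within the KO range, and the difference did not pass (two-sided exact permutation p = 0.0714, adjusted p = 0.107).

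**Figure D3:**
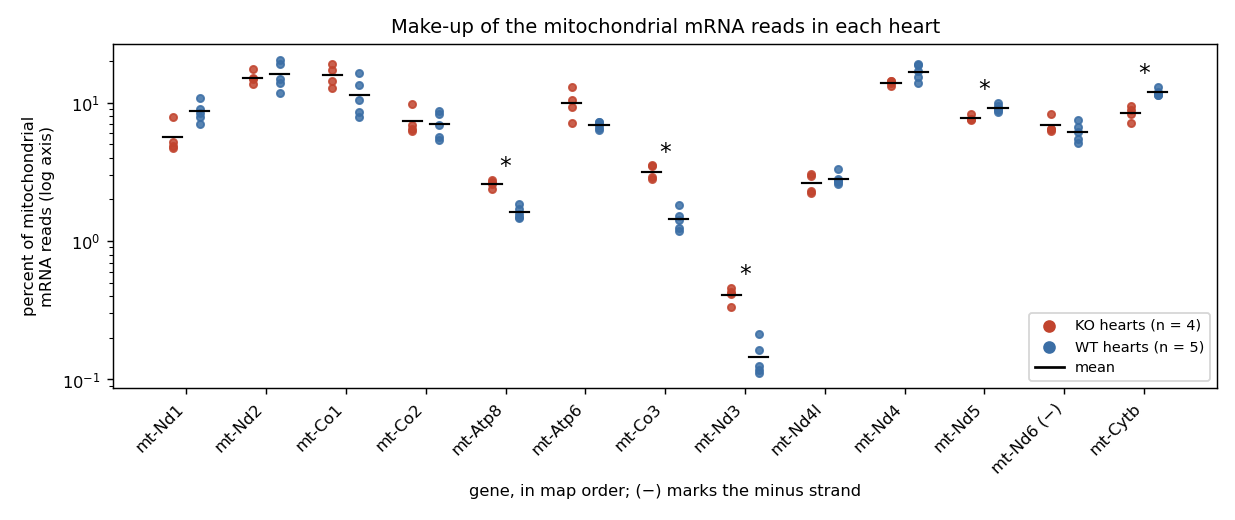
Percent of the 13 mitochondrial mRNAs' summed reads taken by each mRNA (log axis), in map order; each point is 1 heart (KO n = 4, left of WT n = 5), bars are group means, and a star marks an adjusted exact permutation p under 0.05. The KO shares of mt-Atp8, mt-Co3 and mt-Nd3 lie above every WT heart and those of mt-Nd5 and mt-Cytb under every WT heart.

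Neither the ratio of mt-Nd6 to the plus-strand mRNAs nor the slope along the transcript passed its test. The libraries keep no strand, so reads over mt-Nd6 can come from RNA of either strand. The ratio therefore cannot separate the coding strands. Reads of mt-Nd6 per 1000 reads of the plus-strand mRNAs were 69.7, 89.9, 68.9 and 66.7 in KO hearts 1 to 4, against 54.3, 81.1, 71.6, 64.96 and 58.03 in WT hearts 1 to 5. The groups overlapped (two-sided exact permutation p = 0.2698, adjusted p = 0.321). The slope of log2 reads per kb against distance from the start of mt-Rnr1, over the 12 plus-strand mRNAs, was -0.09 ± 0.0344 per kb in KO hearts and -0.08 ± 0.0111 per kb in WT hearts (SD, n = 4 and 5; two-sided exact permutation p = 0.857, adjusted p = 0.857). Across the 13 mRNAs the Spearman rho of the log2 fold change was -0.16 with start position, -0.51 with length, -0.22 with GC content and -0.73 with the mean WT level, given as a description over 13 genes of the same libraries. The mean WT level enters both sides of the last value.

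Per kb of transcript, the mRNAs differed widely in level in both groups. In KO hearts mt-Atp6 was highest, at 15537 CPM per kb, followed by mt-Nd2 at 15085, mt-Nd6 at 13529 and mt-Atp8 at 13089, and these neighbours differed by less than their SDs of 3635 to 6816. In WT hearts mt-Nd2 was highest, at 94521 ± 57228 CPM per kb (SD, n = 5), and mt-Nd4, mt-Nd6 and mt-Cytb came next within that spread. mt-Nd5, mt-Co3 and mt-Nd3 held the last 3 places in both groups, with mt-Nd3 at 1219 CPM per kb in KO hearts and 2230.2 CPM per kb in WT hearts. The highest mRNA stood 12.7-fold above the lowest in KO hearts and 42.4-fold in WT hearts. The rRNAs stood low for their length in these poly(A)-selected libraries, mt-Rnr2 at 2427 CPM per kb in KO hearts and 17666 CPM per kb in WT hearts. Selection depends on the poly(A) tail, which was not measured, so these values do not compare amounts of rRNA and mRNA in the heart.

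Nuclear copies of mitochondrial DNA limit what the low levels of some mRNAs mean. Windows of 50 bases were compared with nuclear transcripts of the annotation, and the share also found there was 100% for mt-Co2, 99.9% for mt-Co3, 99.5% for mt-Atp6, 98.8% for mt-Nd4l and 97.99% for mt-Nd3. It was 62.2% for mt-Nd4, 51.1% for mt-Co1, under 10% for mt-Nd2, mt-Nd5 and mt-Rnr2, and 0 for mt-Nd1, mt-Nd6, mt-Cytb, mt-Atp8 and mt-Rnr1. Only annotated transcripts were compared, so a share of 0 does not show that a nuclear copy is absent. mt-Atp8 lies between mt-Co2 and mt-Atp6, whose nuclear copies Gm28661 and Gm10925 lie close together on chromosome 1 (24614885-24615565 and 24613974-24614651). Whether the stretch between those copies holds mt-Atp8 sequence was not tested. Of the 15 nuclear genes that share windows of 50 bases with mitochondrial genes, 1, Gm20594, had a row in the count table, with 0 to 18 reads per heart. How reads that fit both places were counted is not given in the sources used here, so the absolute levels of the mRNAs with shared windows are uncertain. mt-Nd3 and mt-Co3, which fell least, are nearly all shared, but so is mt-Co2, which fell 5.12-fold, and the part of the sharing in the fold changes was not tested.

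The tRNAs gave few reads, 2747 to 4755 in KO hearts and 4231 to 7257 in WT hearts. The libraries select poly(A) RNA, and mature tRNAs carry no poly(A) tail. Their rows count reads over tRNA positions, and whether these come from mature tRNA or from longer transcripts cannot be told apart. Of the 22, 16 had enough reads to be tested, and 6 of these were lower in KO hearts, 0 higher and 10 not past the threshold, beside the 25.2% of all genes called lower. At an unadjusted p under 0.05 by edgeR, 9 of 16 were lower and 0 higher, without a share over all genes to set beside it. DESeq2 called 9 of 16 lower and 0 higher, beside 3291 of 12640 genes lower. The edgeR count was 12 of 22 tested with no filter on low counts, beside 3133 of 18026 genes. Without KO heart 2 it was 10 of 18, beside 2770 of 12706 genes. It was 3 of 13 without WT heart 2 (3071 of 12563 genes) or without WT heart 3 (3044 of 12564), and 2 of 14 without both (2869 of 12780). Untested were mt-Tf, mt-Tv, mt-Tw, mt-Td, mt-Tk and mt-Ts2, all on the plus strand. The sequences of 6 are shown, 3 that were lower (mt-Te, mt-Ts1 and mt-Tl1) and 3 that were not (mt-Tm, mt-Tc and mt-Tr), 5′ to 3′ on the coding strand (GENCODE vM21, GRCm38), with the anticodon in capitals and T for U.
mt-Te: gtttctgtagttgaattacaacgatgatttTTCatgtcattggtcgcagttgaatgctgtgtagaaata
mt-Ts1: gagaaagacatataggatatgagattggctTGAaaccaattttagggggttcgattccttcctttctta
mt-Tl1: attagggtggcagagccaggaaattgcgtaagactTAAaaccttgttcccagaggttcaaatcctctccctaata
mt-Tm: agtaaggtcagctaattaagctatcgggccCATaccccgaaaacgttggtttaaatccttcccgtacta
mt-Tc: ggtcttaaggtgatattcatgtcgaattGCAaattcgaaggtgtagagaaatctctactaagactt
mt-Tr: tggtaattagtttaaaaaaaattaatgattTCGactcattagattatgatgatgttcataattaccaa
mt-Te (M:14071-14139, minus) and mt-Ts1 (M:6870-6938, minus) are the tRNAs for glutamate and for one group of serine codons, mt-Tl1 (M:2676-2750, plus) that for one group of leucine codons. mt-Tm (M:3845-3913, plus), mt-Tc (M:5192-5257, minus) and mt-Tr (M:9808-9875, plus) carry methionine, cysteine and arginine.

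Most tRNA reads fell on mt-Te and mt-Ts1, which together took 64.4 to 81.7% of them in KO hearts and 84.8 to 86.9% in WT hearts. mt-Te had 69.02, 124, 88.8 and 99.1 CPM in KO hearts 1 to 4, against 246, 858, 715, 289 and 561 CPM in WT hearts 1 to 5. The groups did not overlap (log2 fold change -2.48 ± 0.33, edgeR adjusted p = 3.78e-05). mt-Te adjoins mt-Nd6, and reads of mt-Te per 100 mt-Nd6 reads were 1.29 to 1.49 in KO hearts and 1.32 to 1.66 in WT hearts, with overlap. mt-Ts1 had 37.6, 95.5, 50.8 and 67.8 CPM in KO hearts 1 to 4, against 28.2, 417, 503, 47.9 and 167 CPM in WT hearts 1 to 5. WT hearts 2 and 3 were far above WT hearts 1 and 4, which lay under or among the KO hearts, and the call (log2 fold change -1.87 ± 0.64, edgeR adjusted p = 0.0228) was lost without KO heart 1 or 3 or without WT heart 2 or 3. Without both of those WT hearts its log2 fold change was -0.36 (edgeR adjusted p = 0.558). mt-Tl1, next to mt-Rnr2 on the heavy-strand transcript, had 1.71, 2.47, 3.13 and 4.01 CPM in KO hearts 1 to 4, against 15.6, 25.7, 27.2, 14.8 and 19.7 CPM in WT hearts 1 to 5. It fell 7.12-fold with no overlap, further than any other tRNA tested (log2 fold change -2.83 ± 0.26, edgeR adjusted p = 4.11e-06). mt-Tq, the glutamine tRNA on the minus strand, had 4.04, 9.94, 6.93 and 8.23 CPM in KO hearts 1 to 4, against 5.78, 72.8, 70.5, 8.22 and 32.2 CPM in WT hearts 1 to 5. WT hearts 1 and 4 lay within the KO range (log2 fold change -2.28 ± 0.61, edgeR adjusted p = 0.00623), and without WT hearts 2 and 3 the call was lost (log2 fold change -1.04, edgeR adjusted p = 0.103).

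The remaining calls rest on few reads: mt-Th, the histidine tRNA, had 3, 6, 8 and 10 reads in KO hearts 1 to 4, against 13, 8, 15, 9 and 20 reads in WT hearts 1 to 5. Its log2 fold change was -2.07 ± 0.63 (edgeR adjusted p = 0.0128). mt-Tt, the threonine tRNA, had 4, 17, 5 and 4 reads in KO hearts 1 to 4, against 10, 11, 10, 10 and 17 reads in WT hearts 1 to 5 (log2 fold change -1.77 ± 0.66, edgeR adjusted p = 0.03603), and its call was lost without KO heart 1, 3 or 4 and without WT hearts 2 and 3 together (log2 fold change -1.08, edgeR adjusted p = 0.192). Without WT heart 2, 3 or 5, mt-Th and mt-Tt did not pass the count filter and had no test.

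mt-Tm, the fourth most abundant tRNA row, had 3.61, 18.5, 14.6 and 47.7 CPM in KO hearts 1 to 4, against 8.97, 16.6, 13.3, 8.85 and 21.4 CPM in WT hearts 1 to 5. KO heart 4 stood above every WT heart and KO heart 1 under all of them, with a log2 fold change of 0.64 ± 0.49 (edgeR adjusted p = 0.286), 1.01 and past the threshold without KO heart 1, and -0.13 without KO heart 4. mt-Ty, the tyrosine tRNA, had 2.47, 9.996, 4.75 and 8.16 CPM in KO hearts 1 to 4, against 3.59, 9.71, 10.4, 4.21 and 4.64 CPM in WT hearts 1 to 5. mt-Tc had 3.33, 8.49, 5.51 and 7.52 CPM in KO hearts 1 to 4, against 3.68, 9.37, 7.404, 4.21 and 5.22 CPM in WT hearts 1 to 5. For both the groups overlapped (log2 fold change 0.14 ± 0.39 and 0.20 ± 0.30, edgeR adjusted p = 0.789 and 0.604). mt-Tn, for asparagine, had 2.14, 3.67, 2.98 and 3.65 CPM in KO hearts 1 to 4, against 3.23, 6.94, 12.1, 2.39 and 6.15 CPM in WT hearts 1 to 5. It did not pass (log2 fold change -0.81 ± 0.38, edgeR adjusted p = 0.0854). mt-Tr had 1.995, 3.43, 2.88 and 2.93 CPM in KO hearts 1 to 4, against 1.39, 5.55, 6.81, 1.62 and 2.67 CPM in WT hearts 1 to 5, and was the highest in any heart among the 14 tRNAs outside the 8 most abundant. Of the 8 minus-strand tRNAs 3 were lower and 5 did not pass, and of the 14 plus-strand tRNAs 3 were lower, 5 did not pass and 6 were untested.

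Relative to the mRNAs, tRNA reads came to 0.184, 0.246, 0.194 and 0.212 per 100 mitochondrial mRNA reads in KO hearts 1 to 4, against 0.112, 0.171, 0.192, 0.109 and 0.136 in WT hearts 1 to 5. KO heart 1 lay under WT heart 3, and the difference did not pass after adjustment (two-sided exact permutation p = 0.0476, adjusted p = 0.0857). Leaving out mt-Te and mt-Ts1, the other 20 tRNAs had 0.0337 to 0.0754 reads per 100 mRNA reads in KO hearts and 0.01497 to 0.0252 in WT hearts, a description of values that did not overlap.

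**Figure D4:**
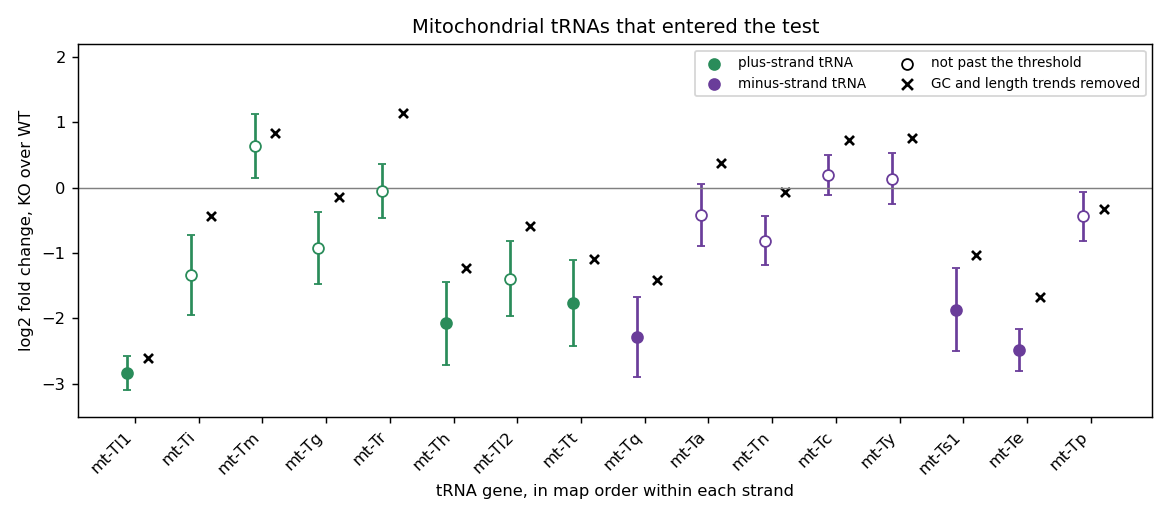
log2 fold change (KO over WT) ± SE from edgeR for the 16 tRNAs tested, plus-strand tRNAs first and minus-strand tRNAs after them, each in map order; filled circles passed the threshold and crosses give the value with GC and length trends removed. The lowest circles are mt-Tl1 at -2.83 and mt-Te at -2.48, and the crosses of mt-Tr, mt-Tm, mt-Ty, mt-Tc and mt-Ta lie above 0.

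Base composition and transcript length moved with genotype across the nuclear genes too. Relative to the mean of all hearts, log2 CPM changed by 0.15 to 0.63 per 10 points of GC content in KO hearts and by -0.39 to -0.19 in WT hearts, and by -0.14 to -0.07 per doubling of length in KO hearts and 0.02 to 0.12 in WT hearts. Mitochondrial mRNAs hold 31.9% to 41.1% GC. With these trends removed by offsets, 11 of 13 mRNAs and both rRNAs were still lower, and the median of the mRNAs was -1.81 in place of -2.39. mt-Nd3 and mt-Co3 no longer passed, at log2 fold changes of -0.10 and -0.67 (edgeR adjusted p = 0.7799 and 0.0657). mt-Nd1 stood at -2.46, mt-Cytb at -2.26 and mt-Co2 at -1.81, all past the threshold. Of the tRNAs 3 were then lower, mt-Tl1 at -2.61, mt-Te at -1.66 and mt-Tq at -1.41, and 2 higher, mt-Tr at 1.14 and mt-Tc at 0.73 (edgeR adjusted p = 0.00352 and 0.0252). In that fit 19.7% of all genes were lower and 19% higher, so that 3 lower and 2 higher of 16 tRNAs were no more than the background. The trends were fitted over all genes of that fit, these tRNAs among them, and the tRNAs tested are 66 to 75 bases long. How well the offsets hold at that length was not tested. Trends that track the groups cannot be told apart from genotype in these hearts.

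In the deposited FPKM values, a separate table of the same hearts, 9 of 13 mRNAs, both rRNAs and 7 of 22 tRNAs were lower by limma on log2(FPKM + 1), and none was higher. Those tRNAs were mt-Tl1, mt-Te, mt-Td, mt-Tk, mt-Ts2, mt-Th and mt-Tt. Of them mt-Td, mt-Tk and mt-Ts2 had 2 to 21 reads per heart, too few to be tested in the counts. mt-Th and mt-Tt had 3 to 20 reads per heart, so most of these tRNA calls rest on few reads. Of the 12637 genes tested there, 6.09% were lower and 47.2% higher, and the median over all genes was a log2 fold change of 0.44, so that scale is shifted upwards in KO hearts. The median of all 13 mRNAs was -1.54, and it includes the 3 with values of 0 named below. mt-Nd3 did not pass, at 2121, 4035, 3471 and 4407 FPKM in KO hearts 1 to 4, against 4453, 4198, 4109, 3023 and 5183 FPKM in WT hearts 1 to 5 (log2 fold change -0.29 ± 0.27, limma adjusted p = 0.385). mt-Co1 is listed at 0 FPKM in WT heart 1, a heart with 1060948 reads of it in the count table, and mt-Nd4 and mt-Nd4l are listed at 0 in WT hearts 1 and 5. mt-Ts1 is likewise listed at 0 FPKM in WT heart 1, where 629 reads of it were counted. No direction is read from the FPKM of those 3 mRNAs or of mt-Ts1.

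Listed nuclear genes for synthesis and handling of mitochondrial RNA moved in both directions. The list also holds genes for mitochondrial DNA, namely Polg, Polg2, Twnk, Ssbp1, Top1mt and Mgme1. Of the 56 listed genes 53 were tested, and 19 were lower, 11 higher and 23 not past the threshold. Their median log2 fold change was 0.04 beside -0.01 over all genes, and the background was 25.2% lower and 26.2% higher. Polrmt, the RNA polymerase, had 33.4, 41.4, 33.8 and 48.7 CPM in KO hearts 1 to 4, against 22.9, 18.04, 16.9, 15.7 and 23.4 CPM in WT hearts 1 to 5. It was higher without overlap (log2 fold change 1.003 ± 0.16, edgeR adjusted p = 1.61e-04), though not past the threshold with the trends removed, at 0.27. Tfam, which packages the DNA and opens the promoters, averaged 13.3 ± 1.52 CPM in KO hearts and 17.01 ± 2.36 CPM in WT hearts (SD, n = 4 and 5) (log2 fold change -0.37 ± 0.15, edgeR adjusted p = 0.04599), with overlap, and stood at -0.0027 with the trends removed (edgeR adjusted p = 0.9897). Lrpprc, which with Slirp keeps mitochondrial mRNAs stable, had 116, 74.4, 82.97 and 47.2 CPM in KO hearts 1 to 4, against 115, 146, 109.6, 138 and 124 CPM in WT hearts 1 to 5. KO heart 1 lay among the WT hearts (log2 fold change -0.66 ± 0.20, edgeR adjusted p = 0.0115), and Slirp itself did not pass (-0.67 ± 0.28, edgeR adjusted p = 0.0516).

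Pnpt1, part of the RNA-degrading complex, averaged 3.61 ± 0.756 CPM in KO hearts and 5.44 ± 0.559 CPM in WT hearts (SD, n = 4 and 5) and was lower (edgeR log2 fold change -0.59 ± 0.20, adjusted p = 0.0206). Removing the trends brought its log2 fold change to 0.0783. Its helicase partner Supv3l1 did not pass (0.09 ± 0.12, edgeR adjusted p = 0.563), nor did the poly(A) polymerase Mtpap (-0.33 ± 0.20, edgeR adjusted p = 0.192). Elac2, which cuts the 3′ ends of tRNAs, averaged 21.1 ± 2.47 CPM in KO hearts and 15.96 ± 1.22 CPM in WT hearts (SD, n = 4 and 5) and was higher without overlap (log2 fold change 0.40 ± 0.13, edgeR adjusted p = 0.0199). Removing the trends took that log2 fold change to 0.0361 (edgeR adjusted p = 0.8402), and its call was lost. The smallest p values among the higher genes belonged to Polg, the mitochondrial DNA polymerase, at 55.6 ± 6.56 CPM in KO hearts and 26.97 ± 2.74 CPM in WT hearts (SD, n = 4 and 5) (edgeR log2 fold change 1.03 ± 0.13, adjusted p = 2.36e-05), with the tRNA-modifying enzyme Gtpbp3, at 10.4 ± 0.6797 CPM in KO hearts and 4.29 ± 1.09 CPM in WT hearts (SD, n = 4 and 5) (log2 fold change 1.21 ± 0.19, edgeR adjusted p = 1.24e-04), besides Polrmt. Lower were Ssbp1, which binds single-stranded mitochondrial DNA, at 6.59 ± 2.59 CPM in KO hearts and 21.9 ± 6.93 CPM in WT hearts (SD, n = 4 and 5), and the tRNA methyltransferases Trmt5 and Nsun3 (log2 fold changes -1.70 ± 0.25, -0.75 ± 0.15 and -1.41 ± 0.27, edgeR adjusted p = 9.38e-05, 6.76e-04 and 6.81e-04). With the trends removed Polg, Gtpbp3, Ssbp1 and Nsun3 still passed, at 0.88, 0.67, -1.10 and -0.80. Lrpprc also still passed, at -0.47 (edgeR adjusted p = 0.0408), and Trmt5 did not, at -0.32 (edgeR adjusted p = 0.0816).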

How the data were processed

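Poly(A) RNA of 9 hearts was sequenced as single-end libraries without strand, per the labels' protocols. The submitters' processing notes name TopHat2 2.0.10, Bowtie2, HTSeq, Cufflinks 2.1, DESeq and edgeR with the mm10 genome, and the handling of overlapping or repeated alignments in the counting was not given in the sources used here. Deposited by the authors were 1 table of raw counts per gene and 1 table of FPKM. Both were read by the replicate number in the column names, and no other sample columns were present. Where nothing says more than that the libraries are separate hearts, p-values measure the spread between these hearts.

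The counts, as deposited, were fitted for all genes with edgeR 4.0.16 (TMM factors, filterByExpr with a minimum count of 10, quasi-likelihood F test) in R 4.3.3, comparing 4 KO with 5 WT hearts without covariates, and p-values were adjusted by Benjamini-Hochberg over 12640 genes. Standard errors were derived from the F statistic. FPKM values, normalized by the authors, were tested with limma 3.58.1 on log2(FPKM + 1) over genes with a mean of at least 0.5, a scale on which changes of low genes are understated. Shares and ratios per heart were compared by exact permutation of hearts (scipy 1.17.1), adjusted over 9 heart measures or 13 mRNA shares. Alternatives were RLE and upper-quartile factors, other filters, DESeq2 1.42.0, leaving out hearts, offsets that remove lowess trends in GC content and length, and a replicate block. The fits were tested on simulated counts first. No 2 hearts of a group held the same counts: their chi-square per degree of freedom ran from 4.86 to 126. The lowest value was between WT hearts 2 and 3, the shallowest libraries, and the next was 15.4, between WT hearts 3 and 5.

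Gene positions, strands and sequences come from GENCODE vM21 transcripts on GRCm38, the assembly that mm10 names. Of the named genes, values in every heart are given for the mRNAs, the rRNAs and the 8 most abundant tRNAs, and the nuclear genes named are 8 preset ones and up to 3 called genes per direction with the smallest p, most by group mean or fold change. Members and lists were chosen with earlier results of these data known. The check of the targeted gene was added after the data were seen. Of 56 nuclear genes listed, 1 was not matched to a row and 2 did not pass the filter.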

Additional observations from a re-analysis of the deposited data

Results flagged for a closer look

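A gap between 1 heart and the rest of its group that was wide for the group's range appeared in 4 of 90 groups of values tested, and chance alone flags about 1 group in 20. KO heart 2 had 2.68 rRNA reads per 100 mitochondrial mRNA reads, under the other KO hearts at 4.74 to 5.05. The same heart had 89.9 mt-Nd6 reads per 1000 reads of the plus-strand mRNAs, above the other KO hearts at 66.7 to 69.7, and mt-Nd6 took 8.25% of its mitochondrial mRNA reads. In KO heart 1, mt-Nd1 took 7.87% of mitochondrial mRNA reads, above the other KO hearts at 4.71% to 5.17%.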

How the results depend on the processing

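The 13 mRNAs and 2 rRNAs stayed lower with RLE and upper-quartile factors, other filters, DESeq2, the replicate block and each heart left out. The mRNA count was 11 with GC and length trends removed and 12 without WT hearts 2 and 3, a choice made after seeing the data. Lower tRNAs numbered 12 of 22 tested with no filter, 3 of 16 with the trends removed and 2 of 14 without WT hearts 2 and 3. With 1 heart left out they numbered 3 to 10, of 13 to 18 tested. Genes called lower numbered 3133 of 18026, 2466 of 12542, 2869 of 12780, and 2704 to 3353 of 12432 to 12768 in these settings. Higher tRNAs numbered 2 with the trends removed, 1 with the replicate block added to that, and 0 to 1 with 1 heart left out. In FPKM without the filter, 3 of 22 tRNAs were lower. For the nuclear list, the trends removed left 5 higher, and with the block as well 5 higher and 8 lower, against ranges of 9 to 12 higher and 16 to 21 lower with 1 heart left out. Calls over all genes fell too. Higher genes numbered 3313 of 12640 in the main fit and 2386 of 12542 with the trends removed. With the block as well, 1632 were higher and 1898 lower of 12542, beside 3190 lower in the main fit. The cause of these changes was not tested, and some of these settings also hold fewer hearts or genes.

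Without WT hearts 2 and 3 the mRNA share differed by -25.3 points and the rRNA share by -1.72 points (adjusted exact permutation p = 0.0643 each), and 0 mRNA shares of the mitochondrial reads passed. With 1 heart left out these were -35.3 to -29.1 points, -1.98 to -1.55 points and 0 to 7 shares, with fewer splits. The slope difference along the transcript was 0.00199 per kb without mt-Atp8 and mt-Nd4l and -0.0131 to 0.0118 with 1 heart left out.

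Signs turned, on the log2 scale, with the trends removed for mt-Ta (0.38), mt-Tr (1.14), Mtpap (0.10) and Pnpt1 (0.0783), and with the block as well for mt-Ta (0.46), mt-Tr (0.95), Mtpap (0.25), Pnpt1 (0.0146), Tfam (0.0775) and Elac2 (-0.0247). Without WT hearts 2 and 3 they turned for mt-Ta (0.0287), mt-Tr (0.63) and mt-Tp (0.00955). With 1 heart left out the values ran from -0.35 to 0.30 for mt-Tr, -0.0028 to 0.42 for mt-Tc, -0.19 to 0.43 for mt-Ty and -0.13 to 1.01 for mt-Tm.

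Replicate numbers did not pair the hearts: deviations of same-numbered hearts correlated by -0.11, 0.04, -0.06 and -0.26, and 1 of 4 KO hearts correlated best with its own number. With the replicate block, 7 of 16 tRNAs were lower, beside 2538 of 12640 genes. They were without mt-Ts1 (edgeR adjusted p = 0.0766) and with mt-Ti and mt-Tl2, and mt-Ty stood at -0.15. The nuclear genes Tfam (edgeR adjusted p = 0.252), Elac2 (0.157) and Pnpt1 (0.0765) no longer passed. The permutation tests were run without a block.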
